A study of Mus musculus with 13 samples.

Results

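The 40 genes described here encode the Eph receptors and their ephrin ligands, the Slits and their Robo receptors, and the netrins with their receptors Dcc, Neo1 and Unc5a to Unc5d. They were chosen by symbol from the 53653 genes of a mouse RNA-seq count table. All 13 libraries came from GFP-positive cells sorted from medulloblastomas, tumours of the cerebellum, in mice that overexpressed SmoM2, an activated form of the Hedgehog pathway transducer Smoothened. The control primary group (5 libraries, replicates 3 to 7) were cerebellar tumours labelled SmoM2 overexpression, from mice aged 6 to 16 weeks. The KO primary group (4 libraries, replicates 3, 4, 6 and 7) were cerebellar tumours in which Kmt2d, a histone methyltransferase gene, was also knocked out (SmoM2-Kmt2dCf/Cf, 5 to 8 weeks). The KO metastasis group (4 libraries, the same numbers) were spinal cord metastases of the same SmoM2 and Kmt2d knockout genotype and age range. The frozen cell pellets of metastases could be smaller than those of primary tumours, per the labels. The drivers of SmoM2 and of the recombination of Kmt2d are not given in the labels, no untransformed tissue or control metastasis was analysed here, and the labels do not say which libraries share a mouse. Every p-value therefore measures the spread between these libraries.

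Eph receptors are receptor tyrosine kinases that read ephrins on the surface of neighbouring cells. Ephrin-A ligands are held by a lipid anchor and mostly bind EphA receptors, ephrin-B ligands span the membrane and mostly bind EphB receptors, and both sides of the contact can signal. Slits are secreted repellents read by Robo receptors. Netrins attract growing axons and migrating cells through Dcc and its relative neogenin (Neo1) and repel them through Unc5 receptors. In the developing cerebellum, ephrin-B signalling acts on the migration of granule cell precursors, the cells from which this kind of medulloblastoma arises, and Unc5c helps to hold these precursors within the cerebellum.

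Library totals ran from 23545383 to 41412288 counts, and 38 of the 40 genes passed the filter on low counts among 22265 genes tested. Ntn5 and Robo4 did not pass. The tumour label was read from 12 granule cell precursor markers, which summed to 4648 to 5789 CPM (counts relative to the library total, scaled by edgeR's TMM factors) in control primary, 6030 to 6898 in KO primary and 5974 to 7822 in KO metastasis libraries, with none at 0. Kmt2d counts over the whole gene ranged from 78.1 to 175 CPM in control primary, 91.7 to 168 in KO primary and 105 to 131 in KO metastasis libraries (lowest edgeR adjusted p = 0.946). These counts do not resolve a deleted part of the gene and so do not check the genotype. Olfactory and vomeronasal receptor genes summed to over 100 CPM in 4 libraries (control primary 3, KO primary 7, KO metastasis 6 and 7). Xist was above 10 CPM in control primary 5, 6 and 7 and in no KO library. Where leaving out either set of libraries ended a call of a named gene, the value is given beside it. The fit without the 3 controls with Xist counts kept only control primary 3 and 4. That without the 4 libraries with high receptor counts kept only metastases 3 and 4 in their group. A call can be lost in these fits through the smaller number of libraries alone.

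Within each subfamily a few genes carried most of the RNA. Levels of different genes are compared as RPKM, TMM-scaled CPM per kilobase of merged exons, and 2 neighbours in an order are called separate where the mean of their difference over the 5 control libraries was above its SD. Among the ephrin-A ligands of control primary tumours, Efna2 led with 24.7 ± 1.98 RPKM (SD, n = 5), followed by Efna4 (10.2 ± 1.28), Efna5 (2.47 ± 0.753), Efna1 (2.27 ± 0.541) and Efna3 (1.003 ± 0.364), of which only Efna5 and Efna1 were not separate. For the ephrin-B ligands the order was Efnb3 (17.6 ± 4.54 RPKM), Efnb1 (10.2 ± 2.98) and Efnb2 (1.105 ± 0.442), each separate from the next. The EphB order was Ephb6 (18.3 ± 4.67 RPKM), whose kinase domain is inactive, then Ephb2 (8.94 ± 3.14), Ephb4 (5.25 ± 2.42), Ephb1 (2.57 ± 0.912) and Ephb3 (0.480 ± 0.399), again each separate. EphA receptors were less ordered. In the order Epha8 (11.6 ± 6.46 RPKM), Epha7 (5.54 ± 1.66), Epha3 (3.89 ± 2.52) and Epha2 (2.26 ± 1.17), no 2 neighbours were separate. Epha2 was separate from Epha5 (0.712 ± 0.490) and lay above it in 5 of 5 control libraries. Epha1, Epha4, Epha6 and Epha10 had means between 0.0376 and 0.334 RPKM.

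The netrin receptors Neo1 (40.3 ± 15.5 RPKM, SD, n = 5) and Dcc (24.4 ± 8.75) stood at higher mean levels in control tumours than any Eph or Robo receptor. The netrins Ntn4 (23.8 ± 4.38 RPKM) and Ntn1 (18.5 ± 4.44) were of the same order, and Ntn4 lay above Ntn1 in 5 of 5 control libraries. The repulsive Unc5 receptors were far lower, from Unc5a (1.21 ± 0.769 RPKM) through Unc5c (0.704 ± 0.216) and Unc5b (0.479 ± 0.2504) to Unc5d (0.108 ± 0.0957). Unc5a and Unc5c were not separate. The merged exons of Unc5c hold 19135 bases and its longest transcript 9646, so its place depends on the length used. Robo2 (8.403 ± 3.39 RPKM) and Robo1 (5.02 ± 2.47) made up the Robo level, with Robo3 at 0.352 ± 0.270. Of the Slits, Slit1 had a mean of 3.48 ± 5.57 RPKM, an SD above the mean, while Slit2 (0.247 ± 0.304) and Slit3 (0.180 ± 0.159) were low. The genes of the netrin-G proteins, which are lipid-anchored and bind synaptic adhesion proteins and not Dcc, stood at 0.966 ± 0.244 RPKM (Ntng2) and 0.803 ± 0.487 (Ntng1).

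**Figure D1:**
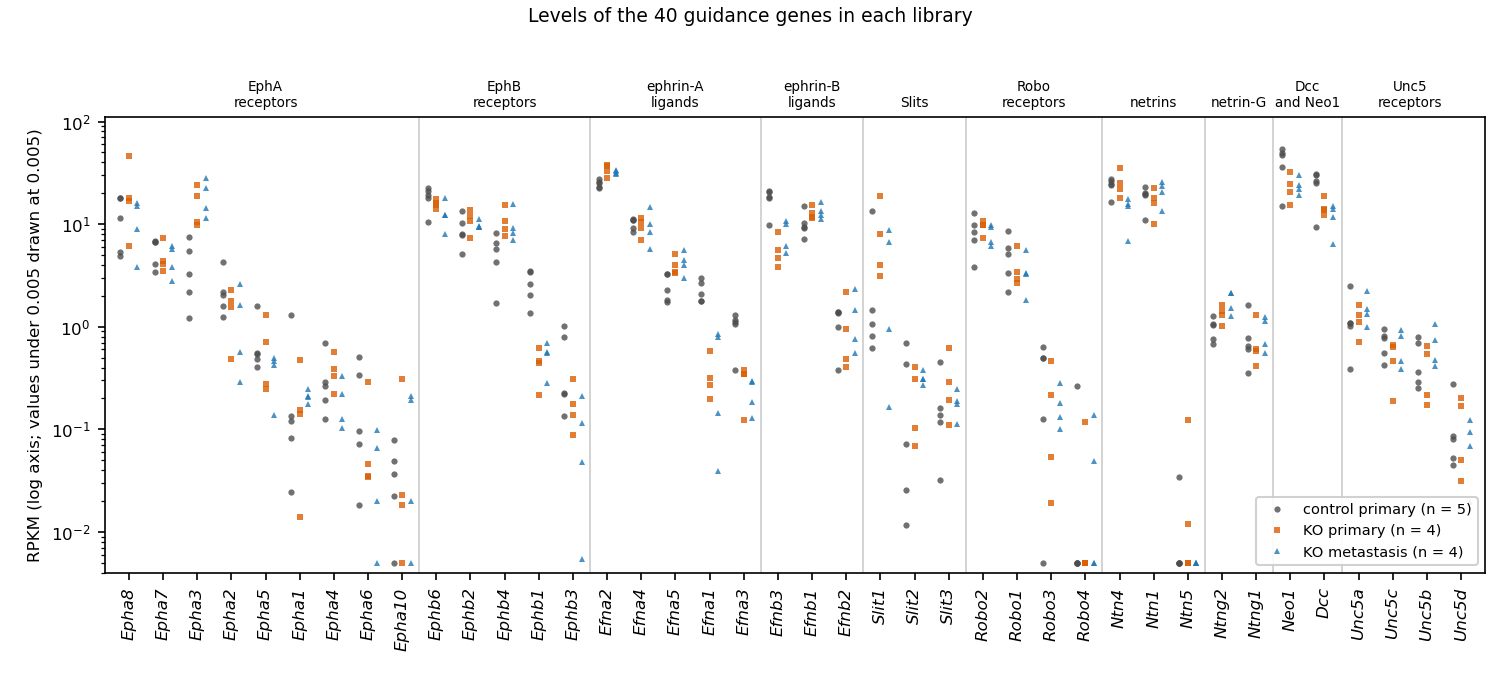
RPKM of each of the 40 genes in each library on a log axis, ordered within each subfamily by the control mean; circles are control primary (n = 5), squares KO primary (n = 4) and triangles KO metastasis (n = 4) libraries. Neo1, Dcc, Efna2, Ntn4 and Ntn1 are high in all groups, Epha3 rises above and Ephb1, Efnb3, Efna1 and Efna3 fall below most control values in the KO groups, and Slit1 spreads over more than a factor of 100.

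The first comparison asked how guidance genes differed between primary tumours with and without Kmt2d. Epha3 and Efna2 rose and Ephb1 and Efnb3 fell, so that 4 of the 38 tested genes were called at an edgeR adjusted p below 0.05, or 10.5%. Over all genes tested 2.96% were called, 1.17% higher and 1.79% lower. The median log2 change of the 38 was -0.15, against -0.05 over all genes. The comparison of KO metastasis with the same control libraries called Epha3 higher and Ephb1 and Efna3 lower, 3 of 38 or 7.89%, against 3.07% over all genes (1.06% higher, 2.01% lower). Its median over the 38 was -0.09, against -0.04 over all genes. Between controls and KO primary tumours 3 of the 38 were higher (Efna2, Efna5, Epha3) and 3 lower (Efna1, Efnb3, Ephb1) with no overlap between libraries, 7.89% each, against 3.57% and 3.85% of all genes. Between controls and metastases 3 were higher (Efna2, Epha3, Ntng2) and 3 lower (Efna1, Efna3, Ephb1) without overlap, 7.89% each. The shares of all genes there were 2.81% and 4.01%. At an unadjusted p below 0.05 edgeR gave 10 of the 38 (26.3%, all genes 13.6%) for KO primary and 14 (36.8%, all genes 14.2%) for metastases. Without control primary 3 the genes called lower were 6 in KO primary tumours, with Dcc, Efna1, Efna3 and Neo1 added. In metastases they were 5, with Dcc, Efnb3 and Neo1 added. The share of all genes called in that fit is not given, so these added calls do not set the guidance genes apart. Both comparisons share the 5 control libraries, so their values are given side by side and are not 2 independent results.

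Start regions of the called genes are shown because these genes moved against the same controls. The table of RefSeq promoters (GRCm38.p6) matched 35 of the 40 genes. It has no entry for Efnb3. The 250 bases before the start follow for the other called genes, 5′ to 3′ on the strand of the gene. Capitals mark E-boxes, CANNTG, the core bound by granule lineage factors such as Atoh1 and Neurod1, and GC boxes, GGGCGG or CCGCCC, the core bound by Sp factors.
Ephb1 (chr9:102354694-102354943, minus strand): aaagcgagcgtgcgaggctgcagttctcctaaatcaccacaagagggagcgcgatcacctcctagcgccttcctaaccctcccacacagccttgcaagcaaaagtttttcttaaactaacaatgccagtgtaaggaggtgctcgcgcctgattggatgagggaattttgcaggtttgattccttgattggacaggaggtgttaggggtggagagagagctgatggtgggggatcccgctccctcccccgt
Epha3 (chr16:63864176-63864425, minus strand): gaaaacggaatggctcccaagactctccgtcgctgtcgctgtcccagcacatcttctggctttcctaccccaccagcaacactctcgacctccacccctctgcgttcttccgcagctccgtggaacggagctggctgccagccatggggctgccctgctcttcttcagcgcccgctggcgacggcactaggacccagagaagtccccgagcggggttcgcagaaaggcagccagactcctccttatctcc
Efna2 (chr10:80179232-80179481, plus strand): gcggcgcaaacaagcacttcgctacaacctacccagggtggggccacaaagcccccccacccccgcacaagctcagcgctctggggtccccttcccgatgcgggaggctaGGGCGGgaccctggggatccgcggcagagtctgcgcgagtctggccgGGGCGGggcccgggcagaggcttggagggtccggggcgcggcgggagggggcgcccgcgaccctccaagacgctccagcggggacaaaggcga
Efna3 (chr3:89322940-89323189, minus strand): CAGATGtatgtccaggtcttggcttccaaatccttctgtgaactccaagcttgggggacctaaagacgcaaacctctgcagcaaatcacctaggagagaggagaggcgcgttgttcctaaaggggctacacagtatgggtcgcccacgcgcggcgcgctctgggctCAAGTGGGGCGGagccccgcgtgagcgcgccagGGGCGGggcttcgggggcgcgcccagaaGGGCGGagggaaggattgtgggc

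The windows of Ephb1 and Epha3 hold neither motif. That of Efna2 holds 2 GC boxes, and that of Efna3 holds 3 GC boxes and 2 E-boxes, one of which adjoins a GC box. An E-box was present in 16 of the 35 windows (45.7%) and in 66.2% of all 32851 RefSeq windows of the same length. A GC box was present in 24 of 35 (68.6%), against 32.7% of all windows. The Gli site GACCACCCA or its reverse complement TGGGTGGTC was in none of the 35 and in 0.225% of all windows. The windows of these guidance genes were rich in CG dinucleotides, with a median of 17 against 6 over all windows. The count was 10 for Ephb1, 16 for Epha3, 19 for Efna3 and 25 for Efna2. These are letter matches and not measured binding sites.

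Ephb1 (ENSMUSG00000032537.15, GRCm38 chromosome 9, 101922128 to 102354693, minus strand) encodes a receptor for ephrin-B ligands. It read 18.2, 24.4, 23.8, 9.43 and 14.2 CPM in controls 3 to 7. The knockouts held 3.07, 1.496, 3.23 and 4.39 CPM as primary tumours 3, 4, 6 and 7 and 3.91, 1.96, 4.88 and 3.999 CPM as metastases of these numbers. The lowest control library, replicate 6, was above the highest KO library, and the KO groups overlapped each other. The mean fell from 18.0 ± 6.38 CPM (SD, n = 5) to 3.05 ± 1.19 (n = 4) in KO primary tumours, a log2 change of -2.56 (SE 0.38, 5.90-fold lower, edgeR adjusted p = 0.00255). In metastases it was 3.69 ± 1.23 CPM (n = 4), a log2 change of -2.29 against control (SE 0.38, 4.88-fold lower, edgeR adjusted p = 0.00470). Ephb1 was called whichever library was left out, and without the 3 controls with Xist counts the log2 change was -2.78 for KO primary and -2.47 for metastases (edgeR adjusted p = 0.0182 and 0.0351). An antisense noncoding gene, Gm26846, overlaps its 5′ end and held 484 counts over the 13 libraries, against 3667 for Ephb1. Whether counting used the strand is not given in the labels, so reads of this pair may be shared.

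Efnb3 (ENSMUSG00000003934.5, chromosome 11, 69554092 to 69560205, minus strand), an ephrin-B ligand of neurons, was the highest ephrin-B of the control tumours. It read 31.4, 65.8, 57.0, 59.0 and 67.2 CPM in controls 3 to 7. Primary knockout tumours 3, 4, 6 and 7 read 12.2, 14.8, 17.7 and 26.6 CPM, and the metastases of those numbers read 16.6, 19.4, 34.0 and 32.1 CPM. Control replicate 3, one of the 4 libraries with high receptor counts, was the lowest control. It lay above every KO primary library but below metastases 6 and 7, which also had high receptor counts. The log2 change in KO primary was -1.65 (SE 0.30, 56.1 ± 14.5 to 17.8 ± 6.26 CPM, edgeR adjusted p = 0.00778). In metastases the change against control was -1.14 (SE 0.29, 25.5 ± 8.80 CPM, edgeR adjusted p = 0.0522) and was not called, but it was called under 8 of 11 other settings and in 1 of 9 fits that left out a library. Without the 4 libraries with high receptor counts the metastasis value was -1.78 (edgeR adjusted p = 0.00103), and without the 3 controls with Xist counts the KO primary call was lost (log2 -1.45, edgeR adjusted p = 0.190).

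The order of the 2 leading ephrin-B ligands was reversed between control and KO libraries. In RPKM, Efnb3 exceeded Efnb1 in 5 of 5 control libraries and in 0 of 4 KO primary and 0 of 4 KO metastasis libraries. Its share of the summed ephrin-B level was 60.6% ± 6.44 (SD, n = 5) in control primary, 28.8% ± 8.61 (n = 4) in KO primary and 35.3% ± 11.6 (n = 4) in KO metastasis libraries. Efnb1, an X-linked ephrin-B, read 24.9, 31.5, 52.4, 35.4 and 32.4 CPM in controls 3 to 7. Values in the knockout were 52.6, 39.97, 40.7 and 44.0 CPM for primaries 3, 4, 6 and 7 and 46.5, 56.2, 42.8 and 39.1 CPM for the metastases so numbered. These groups overlapped through control replicate 5 (log2 0.33, SE 0.19, edgeR adjusted p = 0.537 for KO primary, and 0.39, SE 0.19, adjusted p = 0.402 for metastases). Efnb2, the third ephrin-B, was not called and ranged from 2.59 to 16.02 CPM.

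Epha3 (ENSMUSG00000052504.7, chromosome 16, 63543534 to 63864175, minus strand) encodes a receptor that binds ephrin-A5 with high affinity. It read 28.1, 47.1, 64.5, 18.7 and 10.6 CPM in controls 3 to 7. The knockouts held 209, 163, 85.8 and 91.4 CPM as primary tumours 3, 4, 6 and 7 and 197, 245, 125 and 101 CPM as metastases of these numbers. The highest control, replicate 5, was below the lowest KO library, and replicates 3 and 4 were the highest in both KO groups. The mean rose from 33.8 ± 21.9 CPM (SD, n = 5) to 137 ± 59.5 (n = 4) in KO primary tumours, a log2 change of 2.02 (SE 0.46, 4.07-fold, edgeR adjusted p = 0.0311). In metastases it was 167 ± 66.4 CPM (n = 4), a log2 change of 2.31 (SE 0.47, 4.95-fold, edgeR adjusted p = 0.0156). The KO primary call was lost without control 4, 6 or 7 or KO primary 3 or 4 (edgeR adjusted p up to 0.129, log2 1.74 to 2.38 over the 9 fits), and the metastasis call without KO metastasis 3 or 4 (up to 0.0565). Without the 3 controls with Xist counts, a fit with controls 3 and 4 only, both were lost, at 1.90 and 2.21 (edgeR adjusted p = 0.182 and 0.117). Without a low-count filter the KO primary call was lost (edgeR adjusted p = 0.0939).

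**Figure D2:**
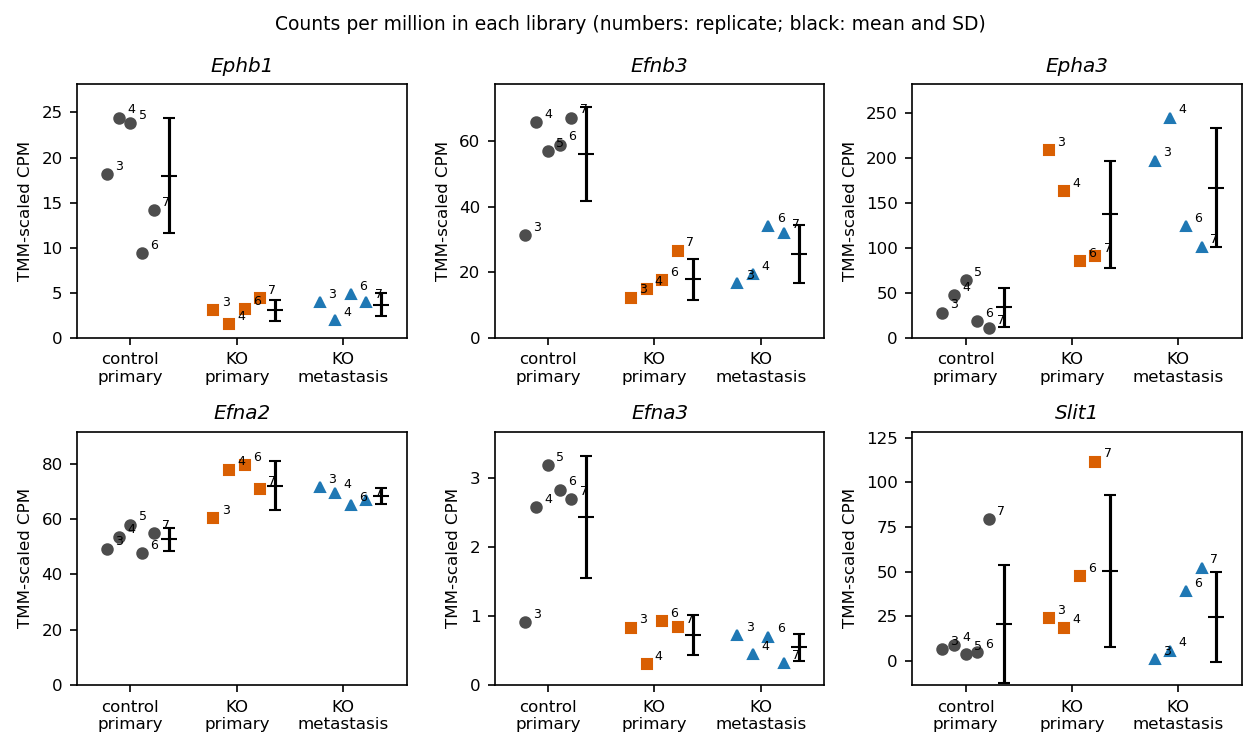
TMM-scaled CPM of Ephb1, Efnb3, Epha3, Efna2, Efna3 and Slit1 in each library, with replicate numbers beside the points and the mean and SD of each group in black. Ephb1 in controls (9.43 to 24.4 CPM) lies above both KO groups (1.496 to 4.88), Epha3 (10.6 to 64.5 CPM in controls) lies below them (85.8 to 245), and Slit1 in control replicate 7 stands far above the other controls.

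With these levels Epha3 moved up in the order of EphA receptors. It made up 15.5% ± 9.11 (SD, n = 5) of the summed EphA RPKM in control primary, 35.8% ± 6.52 (n = 4) in KO primary and 51.7% ± 10.3 (n = 4) in KO metastasis libraries. It exceeded Epha8 in 1 of 5 control, 2 of 4 KO primary and 3 of 4 KO metastasis libraries, and Epha7 in 1 of 5, 4 of 4 and 4 of 4. Epha8, the leading EphA of the controls, read 54.2, 23.1, 84.7, 85.2 and 25.1 CPM in controls 3 to 7. Primary knockout tumours 3, 4, 6 and 7 read 216, 84.0, 79.9 and 28.8 CPM, and the metastases of those numbers read 42.6, 71.0, 76.3 and 18.1 CPM. KO primary 3 was the highest, and all 3 groups overlapped (log2 0.91, SE 0.56, edgeR adjusted p = 0.572 for KO primary against control). The other EphA receptors (Epha1, Epha2, Epha4 to Epha7 and Epha10) were not called in any comparison.

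Of the ligands of the EphA receptors, Efna2 rose in KO primary tumours and Efna3 fell in metastases. Efna2 (ENSMUSG00000003070.6, chromosome 10, 80179482 to 80190010, plus strand) read 49.2, 53.6, 58.1, 47.8 and 54.8 CPM in controls 3 to 7. Values in the knockout were 60.3, 77.97, 79.7 and 70.8 CPM for primaries 3, 4, 6 and 7 and 71.5, 69.6, 65.2 and 67.0 CPM for the metastases so numbered. Every KO library was above every control library, by a small margin for KO primary 3. The log2 change was 0.45 in KO primary (SE 0.11, 1.37-fold, edgeR adjusted p = 0.0480) and 0.38 in metastases (SE 0.11, 1.30-fold, adjusted p = 0.105, not called). The KO primary call was held in only 2 of 9 fits that left out a library, those without control 3 or KO primary 3 (edgeR adjusted p up to 0.211 without the others), and was lost under 8 of 11 other settings. Without the 4 libraries with high receptor counts the change was 0.45 (edgeR adjusted p = 0.0829), and without the 3 controls with Xist counts it was 0.54 (edgeR adjusted p = 0.511).

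Efna3 (ENSMUSG00000028039.11, chromosome 3, 89313899 to 89322965, minus strand) was the lowest ephrin-A of the control tumours. It read 0.913, 2.58, 3.19, 2.83 and 2.69 CPM in controls 3 to 7. The knockouts held 0.833, 0.299, 0.926 and 0.840 CPM as primary tumours 3, 4, 6 and 7 and 0.718, 0.451, 0.702 and 0.316 CPM as metastases of these numbers. Control replicate 3 was at the level of the KO primary libraries and above every metastasis. The change was -1.75 in KO primary (SE 0.50, edgeR adjusted p = 0.0867, not called) and -2.15 in metastases (SE 0.51, 2.44 ± 0.885 to 0.547 ± 0.196 CPM, edgeR adjusted p = 0.0357). The metastasis call was lost in 8 of 9 fits that left out a library, all but that without control 3, and under 3 of 11 other settings (edgeR adjusted p up to 0.115), and without the 3 controls with Xist counts the change was -1.65 (edgeR adjusted p = 0.723).

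Efna3 lies between Efna1 and Efna4 in a cluster of 3 ephrin-A genes on chromosome 3. Efna1 (89271733 to 89281142) read 4.91, 5.45, 3.84, 3.25 and 3.28 CPM in controls 3 to 7. Primary knockout tumours 3, 4, 6 and 7 read 0.365, 0.490, 0.582 and 1.06 CPM, and the metastases of those numbers read 0.0718, 0.265, 1.44 and 1.55 CPM. No KO library reached a control library, but the changes of -2.73 (SE 0.70) and -2.31 (SE 0.69) had edgeR adjusted p = 0.0552 and 0.0985 and were not called. Efna4 (89333390 to 89338028) stood at 16.3 ± 2.05 CPM in control primary (SD, n = 5), 15.3 ± 3.04 in KO primary (n = 4) and 15.5 ± 6.01 in KO metastasis libraries (n = 4). Its log2 changes were -0.092 (SE 0.24) and -0.070 (SE 0.24). Efna5, an ephrin-A on chromosome 17, had means of 9.97, 15.99 and 17.2 CPM in the same order of groups, and its changes of 0.68 (SE 0.25) and 0.79 (SE 0.25) were not called (edgeR adjusted p = 0.201 and 0.123).

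**Figure D3:**
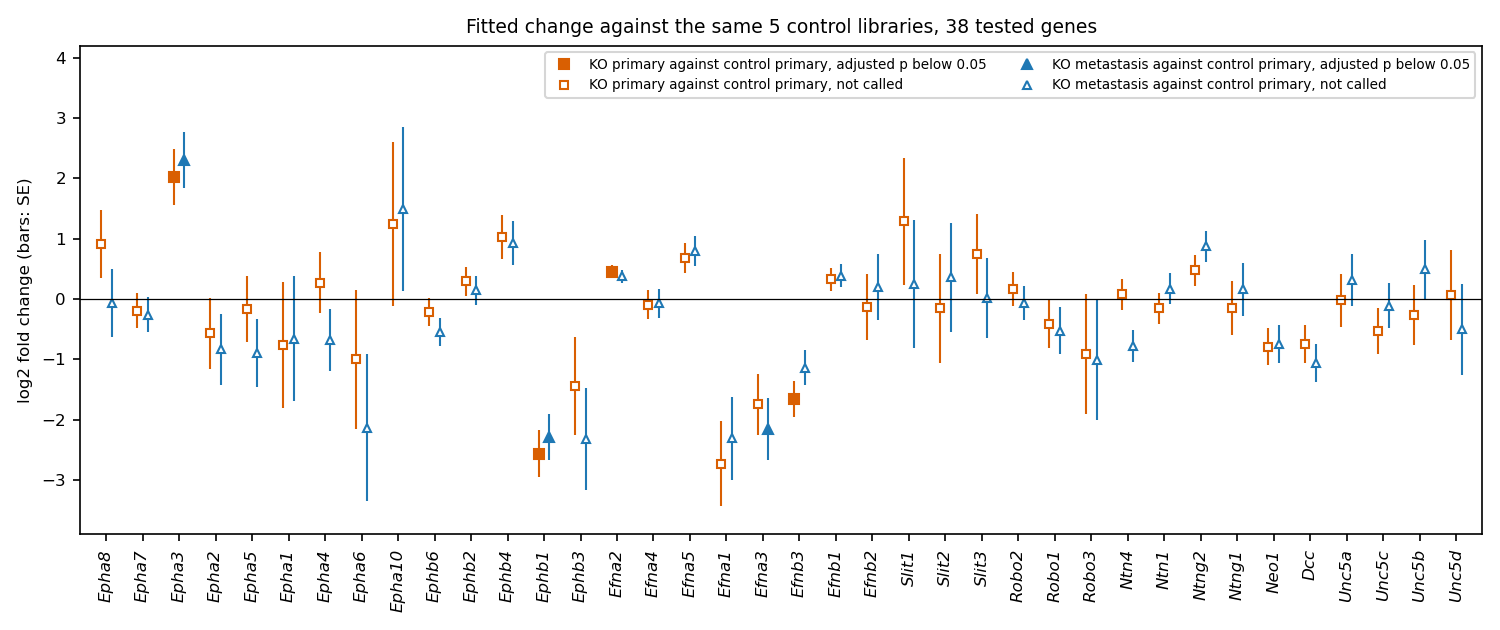
Fitted log2 change with its SE for the 38 tested genes, KO primary (squares) and KO metastasis (triangles) each against the same 5 control primary libraries; filled symbols have an edgeR adjusted p below 0.05. Ephb1 lies at -2.56 and -2.29 and Epha3 at 2.02 and 2.31, and no Slit, Robo, netrin or Unc5 gene has a filled symbol.

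In the EphB receptors the fall of Ephb1 left its share of the summed EphB RPKM at 1.16% ± 0.464 (SD, n = 4) in KO primary and 1.73% ± 0.747 (n = 4) in KO metastasis, against 7.69% ± 3.49 (n = 5) in control primary libraries. Ephb4, best known from veins, went from 14.0% ± 4.14 to 27.7% ± 4.13 and 29.7% ± 4.88 of that sum. Its own log2 changes of 1.02 (SE 0.37) and 0.93 (SE 0.37) were not called (edgeR adjusted p = 0.189 and 0.249). Ephb6, the leading EphB, read 39.8, 80.1, 68.6, 72.5 and 85.0 CPM in controls 3 to 7. Values in the knockout were 66.6, 60.0, 53.5 and 58.4 CPM for primaries 3, 4, 6 and 7 and 30.1, 67.6, 46.3 and 46.3 CPM for the metastases so numbered. The groups overlapped, and neither Ephb6, Ephb2 nor Ephb3 was called.

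**Figure D4:**
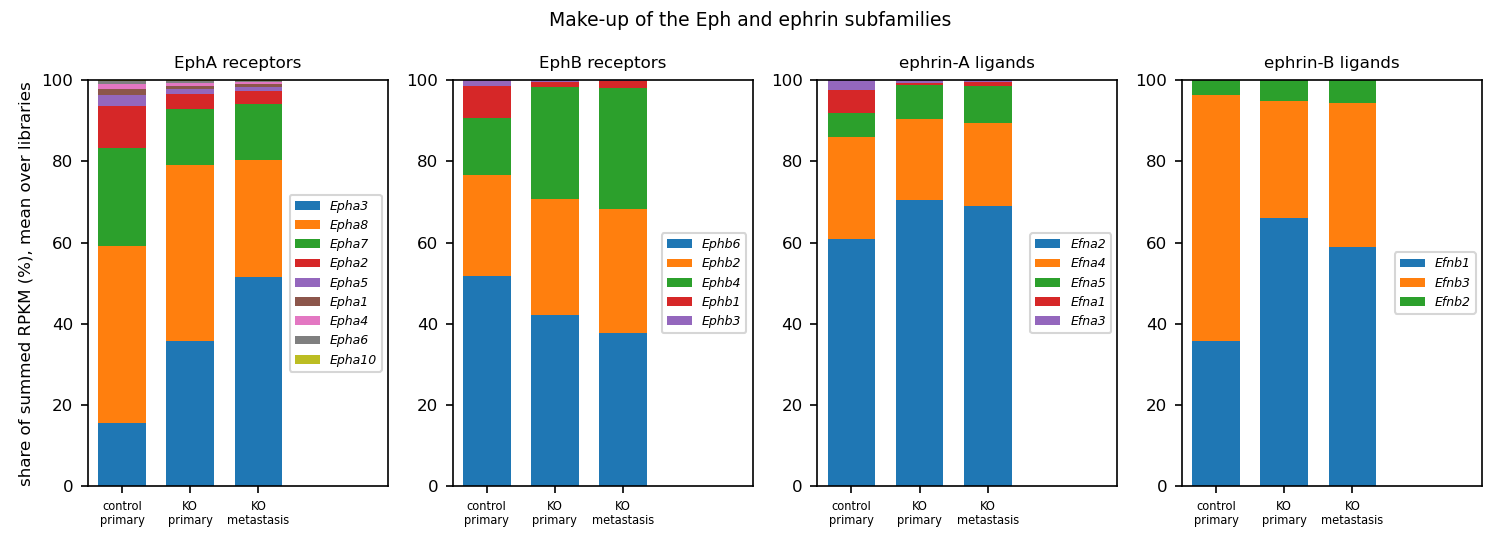
Mean share of each gene in the summed RPKM of its subfamily, in percent, for the EphA receptors, EphB receptors, ephrin-A and ephrin-B ligands in each group. Epha3 goes from 15.5% to 35.8% and 51.7% of the EphA sum, Ephb4 from 14.0% to 27.7% and 29.7% of the EphB sum, and Efnb3 from 60.6% to 28.8% and 35.3% of the ephrin-B sum.

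Markers of granule neurons and of other cell types were read from the same fit. Against controls it called 2.96% of all genes in KO primary tumours and 3.07% in metastases. Of 13 markers of differentiating granule neurons, 8 were lower and 1 higher in KO primary tumours against controls, and 5 lower and 1 higher in metastases. Their summed level was 3681 to 5875 CPM in control primary, 3421 to 3963 in KO primary and 3278 to 4705 in KO metastasis libraries, with none at 0. Of 12 mature granule neuron markers, 2 were lower and 1 higher in KO primary tumours, and 4 lower and 1 higher in metastases. These 12 summed to 561 to 1021 CPM in control primary, 448 to 578 in KO primary and 446 to 593 in KO metastasis libraries. Of 12 granule cell precursor markers, 3 and 4 were higher and none lower, and of 10 oligodendrocyte precursor markers, 1 and 5 were lower and none higher. In the metastases, 12 microglia and macrophage markers summed to 14.3 to 244 CPM, against 11.2 to 82.5 in control primary and 4.71 to 19.2 in KO primary libraries. The 10 oligodendrocyte markers summed to 182 to 1983 CPM in metastases, 151 to 425 in control primary and 76.1 to 109.999 in KO primary libraries, where Opalin was at 0. The 10 Schwann cell markers summed to 86.6 to 1310 CPM in metastases, where Foxd3 was at 0, 56.6 to 194 in control primary and 46.5 to 101 in KO primary libraries. These levels stood apart in metastases 6 and 7, the 2 with high receptor counts. Schwann cell markers summed to 1310 and 553 CPM there, against 93.9 and 86.6 in metastases 3 and 4. Oligodendrocyte markers summed to 1983 and 853 against 182 and 324, and microglia and macrophage markers to 244 and 186 against 49.0 and 14.3. Control primary 3 and KO primary 7, which also had high receptor counts, did not reach these levels. Their Schwann cell markers summed to 162 and 63.4 CPM, oligodendrocyte markers to 303 and 109.999, and microglia and macrophage markers to 22.1 and 12.7. In bulk libraries fewer cells of a type and less RNA per cell cannot be told apart, and the part of these markers in the results was not tested.

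Dcc and Neo1, the attractive netrin receptors, had lower means in both KO groups but were not called. Neo1 read 132, 469, 313, 412 and 429 CPM in controls 3 to 7. The knockouts held 215, 180.4, 134 and 284 CPM as primary tumours 3, 4, 6 and 7 and 169, 264, 194 and 208 CPM as metastases of these numbers. Control replicate 3 was below every KO library, while the other 4 controls were above them all. The log2 change of Neo1 was -0.79 (SE 0.31, edgeR adjusted p = 0.249) in KO primary and -0.75 (SE 0.31, adjusted p = 0.276) in metastases. For Dcc it was -0.74 (SE 0.31) and -1.06 (SE 0.32, edgeR adjusted p = 0.302 and 0.101), from 321 ± 115 CPM (SD, n = 5) in control primary to 192 ± 36.5 (n = 4) and 154 ± 50.5 (n = 4). Without control primary 3 both were called lower in both comparisons (Neo1 edgeR adjusted p = 0.0173 and 0.0193).

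The netrin Ntn4 was lower in every metastasis than in every KO primary tumour, 1 of the 38 genes (2.63%) against 1.04% of all genes, and 0 of the 38 were higher without overlap, against 0.683% of all genes. It read 61.1, 99.2, 92.2, 90.8 and 102 CPM in controls 3 to 7. Primary knockout tumours 3, 4, 6 and 7 read 131, 95.1, 81.8 and 67.9 CPM, and the metastases of those numbers read 25.9, 66.5, 59.2 and 56.5 CPM. KO primary 7 exceeded the highest metastasis by little. The log2 change from KO primary to metastasis was -0.85 (SE 0.28, 93.9 ± 27.1 to 52.0 ± 17.9 CPM, edgeR unadjusted p = 0.00803, adjusted p = 1.000) and was not called. Ntn1 ranged from 62.8 to 162 CPM and was not called in any comparison.

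Between KO metastasis and KO primary tumours 0 of the 38 genes were called by edgeR, DESeq2 or limma voom. Over all genes edgeR called 0.00449% (0.00449% higher and 0% lower), so the comparison called almost nothing anywhere. At an unadjusted p below 0.05 edgeR gave 1 of the 38, Ntn4, or 2.63%, against 3.23% of all genes. The fitted log2 changes of the 38 ran from -1.13 to 0.76 with a median SE of 0.46. In counts simulated for this comparison, 26% of 100 genes changed 2-fold and 66% of 100 changed 4-fold were recovered. The changed genes all had means of at least 1 CPM. Shifts shared by many genes of a library, such as high receptor counts, were not simulated. These rates therefore do not give the recovery of members at lower levels or in the real counts. Ephb1 (0.27, SE 0.38), Efnb3 (0.52, SE 0.30), Epha3 (0.28, SE 0.48) and Efna3 (-0.41, SE 0.51) were among the 38 genes not called.

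No Slit or Robo gene was called in any comparison. Slit1, a repellent made by neurons, differed widely between libraries of the same group. It read 6.35, 8.68, 3.65, 4.86 and 79.5 CPM in controls 3 to 7. Values in the knockout were 23.7, 18.6, 47.7 and 112 CPM for primaries 3, 4, 6 and 7 and 0.970, 5.65, 39.3 and 52.2 CPM for the metastases so numbered. Replicate 7 was the highest of each group, and the groups overlapped over most of their range. The fitted changes carried SEs of 1.05 to 1.12 on the log2 scale.

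The receptor Robo2 read 64.3, 143, 219, 168 and 119 CPM in controls 3 to 7. The knockouts held 166, 168, 123 and 184 CPM as primary tumours 3, 4, 6 and 7 and 105, 167, 159 and 113 CPM as metastases of these numbers. Robo2 thus stayed within the control range in every KO library, with log2 changes of 0.17 (SE 0.28) and -0.068 (SE 0.28). Robo1 had changes of -0.41 (SE 0.39) and -0.52 (SE 0.39). Robo3 had changes of -0.91 (SE 0.99) and -1.02 (SE 0.99).

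Robo4, the Robo of endothelial cells, had counts only in the 4 libraries with high receptor counts, 9 to 37 in each, and 0 in the other 9. Epha10, whose kinase domain is inactive, had 15 to 83 counts in these 4 and 0 to 11 in the other 9. The 10 endothelial markers summed to 14.96 to 43.3 CPM in the 4 libraries and to 2.61 to 6.77 CPM in the other 9. More genes of any kind had counts in the 4 libraries, 36476 to 42352, than in the other 9, 22931 to 28439. Ntn5 had counts in 2 of the 4 and in 1 of the other 9, at most 10 in a library. The part of the receptor counts in these levels was not tested.

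**Figure D5:**
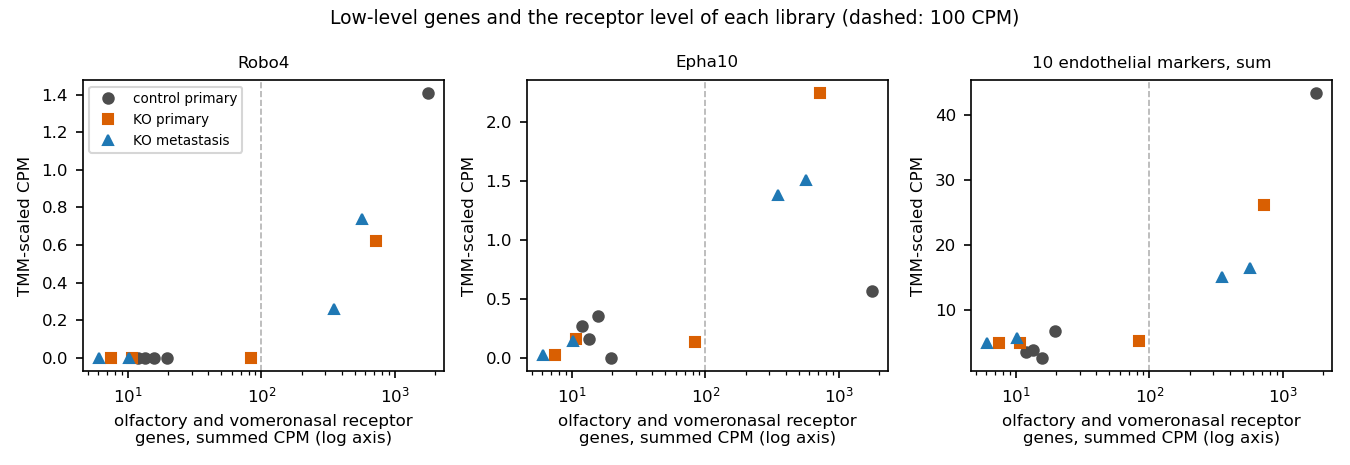
TMM-scaled CPM of Robo4, Epha10 and the sum of 10 endothelial markers in each library, against the summed CPM of olfactory and vomeronasal receptor genes on a log axis; the dashed line is at 100 CPM. Robo4 is at 0 to the left of the line, and all 3 quantities are highest in the 4 libraries to its right.

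Of the Unc5 receptors, Unc5a read 1.60, 10.3, 4.56, 4.51 and 4.23 CPM in controls 3 to 7. Primary knockout tumours 3, 4, 6 and 7 read 4.66, 5.47, 2.96 and 6.80 CPM, and the metastases of those numbers read 5.49, 9.39, 4.11 and 6.21 CPM. All values lay within the range set by control replicates 3 and 4, and none of the 4 Unc5 receptors was called. Ntng2 read 4.18, 2.70, 5.09, 4.25 and 3.04 CPM in controls 3 to 7. Values in the knockout were 5.65, 5.20, 4.05 and 6.501 CPM for primaries 3, 4, 6 and 7 and 8.44, 8.54, 5.13 and 6.04 CPM for the metastases so numbered. Every metastasis lay above every control, but the change of 0.87 (SE 0.26) had an edgeR adjusted p of 0.0998 and was not called. Ntng1 was not called.

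Genes that act with or downstream of these receptors were read from 3 lists. Against controls, 2.96% of all genes were called in KO primary tumours and 3.07% in metastases. Of 30 Eph and ephrin effectors, 1 was higher and 1 lower in KO primary tumours, and 2 were higher and 1 lower in metastases. Grb10, an adaptor that binds Eph receptors and the insulin receptor, rose from 3.22 ± 2.74 CPM (SD, n = 5) to 26.4 ± 17.7 (n = 4) in KO primary tumours (log2 3.05, SE 0.57, edgeR adjusted p = 0.00968) and to 31.7 ± 14.3 (n = 4) in metastases (3.31, SE 0.57, adjusted p = 0.00615). Sh2d3c, an adaptor that couples Eph receptors to cell migration, fell from 39.9 ± 4.76 to 16.6 ± 2.82 and 18.5 ± 3.21 CPM (log2 -1.27, SE 0.16, edgeR adjusted p = 9.02e-04, and -1.11, SE 0.16, adjusted p = 0.00231). Tiam1, an exchange factor that activates Rac, was higher in metastases, at 40.05 ± 13.5 against 16.4 ± 1.67 CPM (log2 1.29, SE 0.19, edgeR adjusted p = 0.00270). Without the 3 controls with Xist counts the metastasis calls of Sh2d3c (log2 -1.04) and Tiam1 (1.54) were lost (edgeR adjusted p = 0.0912 and 0.0807), and the other calls of Grb10 and Sh2d3c were held.

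Of 22 tested netrin receptor ligands and effectors, 3 were lower and none higher in each KO group against control. Tubb3, the neuronal tubulin that binds Dcc, fell by 1.70 on the log2 scale in KO primary tumours (SE 0.25, edgeR adjusted p = 0.00196) and fell by 1.01 in metastases (SE 0.24, adjusted p = 0.0359). It is also one of the differentiation markers above. Lrrc4b, a synaptic adhesion protein of the netrin-G ligand family, fell from 38.8 ± 3.15 CPM (SD, n = 5) to 19.7 ± 4.199 and 17.3 ± 2.10 CPM (n = 4 each, edgeR adjusted p = 0.00438 and 0.00150). Mcf2l fell from 42.7 ± 15.9 to 17.3 ± 8.05 and 15.5 ± 2.71 CPM (edgeR adjusted p = 0.0478 and 0.0270). Without the 3 controls with Xist counts none of these genes was called in metastases (log2 -1.04 for Tubb3, -1.19 for Lrrc4b and -1.07 for Mcf2l, edgeR adjusted p = 0.187, 0.0783 and 0.452), and in KO primary tumours Tubb3 alone was called (Lrrc4b -1.03 and Mcf2l -0.95, adjusted p = 0.126 and 0.556). The metastasis call of Tubb3 was also lost without the 4 libraries with high receptor counts (log2 -0.85, edgeR adjusted p = 0.155) and without control 4, 6 or 7 or metastasis 4, 6 or 7 (adjusted p up to 0.135). That of Mcf2l was lost without control 4, 6 or 7 or any 1 metastasis (edgeR adjusted p up to 0.0994), and its KO primary call without control 4, 6 or 7 or KO primary 3, 4 or 6 (up to 0.182). Of 18 Slit and Robo effectors, 0 were called by edgeR in any comparison. At an unadjusted p below 0.05 edgeR gave 5 for KO primary against control, 0 for metastasis against KO primary and 5 for metastasis against control. The shares of all genes were 13.6%, 3.23% and 14.2%. DESeq2 called 0, 0 and 2 of the 18 and limma voom 3, 0 and 5, with no share of all genes given. The median log2 changes in KO primary and metastasis against control were -0.020 and 0.069 for the Eph and ephrin list, -0.58 and -0.29 for the netrin list and 0.011 and -0.021 for the Slit and Robo list. Between metastases and KO primary tumours edgeR called 0 genes of the first 2 lists, with 1 Eph and 3 netrin genes at an unadjusted p below 0.05, where DESeq2 called 0 and 1 and limma voom 0.

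Genes within 100 kb of the called genes were compared in the same fit, which against controls called 2.96% of all genes in KO primary tumours and 3.07% in metastases. Efnb3 had 9 tested neighbours, of which Atp1b2, a sodium pump subunit of glia and neurons, and Sat2 were lower in both KO groups. Atp1b2 fell from 100.4 ± 25.6 CPM (SD, n = 5) to 13.6 ± 4.53 in KO primary tumours (n = 4, log2 -2.89, SE 0.31, edgeR adjusted p = 3.02e-04) and to 18.8 ± 7.15 in metastases (n = 4, -2.41). Of 15 neighbours of Efna3, Trim46, a protein of the axon initial segment, was lower in both (log2 -1.86, SE 0.19, and -1.82, SE 0.19, edgeR adjusted p = 2.49e-04 and 3.07e-04). Efna2, which rose in KO primary tumours, had 10 neighbours, of which Gamt, an enzyme of creatine synthesis, was lower in both (-1.48, SE 0.19, and -1.18, SE 0.19, edgeR adjusted p = 8.84e-04 and 0.00380). Without the 3 controls with Xist counts the call of Sat2 was lost in both KO groups (log2 -1.21 and -0.85, edgeR adjusted p = 0.149 and 0.453) and that of Gamt in metastases (-1.23, adjusted p = 0.0998). The metastasis call of Sat2 was also lost without the 4 libraries with high receptor counts (log2 -0.83, edgeR adjusted p = 0.142) and without control 5 or 7 or metastasis 4, 6 or 7 (adjusted p up to 0.1004). Epha3 had no tested gene within 100 kb, and the 1 neighbour of Ephb1, Gm26846, was not called. Further members overlap a gene on the opposite strand, so their reads may be shared with it: Epha1 (401 counts over the 13 libraries) overlaps Zyx (47727), Epha5 (4170) overlaps the pseudogene Hmgn2-ps1 (1823), and Ephb4 (17406), Unc5a (2391) and Ntn5 (13) overlap Zan (900), Hk3 (180) and Sec1 (36). Small RNA genes of at most 23 counts lie opposite Ntn1, Ntng1, Robo2 and Ephb1.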

How the data were processed

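Whole-number read counts per gene symbol for 13 libraries were deposited by the authors. HTSeq 0.6.1, STAR 2.4, the build mm10 and DESeq2 are listed, with no role or order, per the submitters' processing notes. The annotation release and the strand setting were not given in these sources. Symbols were matched to GENCODE M21 (GRCm38) for 1-based coordinates and exon lengths, and all 40 members matched.

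All 13 libraries were fitted together in edgeR 4.0.16 (R 4.3.3) with filterByExpr (minimum count 10, minimum total 15), TMM scaling and robust quasi-likelihood F tests for the 3 group comparisons. P-values were adjusted by Benjamini-Hochberg over 22265 genes and called below 0.05. Levels are TMM-scaled CPM or RPKM, with SD over libraries. DESeq2 1.42.0, limma 3.58.1 (voom with quality weights), other scalings and filters, subsets of libraries and a replicate block were alternatives. In simulated counts 42% of 2-fold and 79% of 4-fold changes were recovered for KO primary against control primary, again only in genes of at least 1 CPM.

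Members and lists were chosen with earlier results of these data known. Every member is accounted for, and those called or leading their subfamily by mean RPKM are given in each library. Of the pathway lists, up to 4 called genes per list and comparison with the smallest p are named. Efna1, given by library, other members given with a fitted change and the named neighbours fall outside this rule and were chosen after their values were seen. Counts of replicates were compared, and no 2 libraries of a group agreed within sampling noise. Receptor and Xist levels are CPM of unscaled totals.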

Additional observations from a re-analysis of the deposited data

Results flagged for a closer look

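In groups of 4 or 5 libraries, 42 sets of values were screened for a library far from the others, and 5 were found. Chance alone gives about 1 in 20. Efna3 in control primary 3 was at 0.913 CPM, against 2.58 to 3.19 in the other controls. Efna3 in KO primary 4 was at 0.299 CPM, against 0.833 to 0.926. Efnb3 in control primary 3 was at 31.4 CPM, against 57.0 to 67.2. Ntn4 in control primary 3 was at 61.1 CPM, against 90.8 to 102. Control primary 3 had the highest summed level of olfactory and vomeronasal receptor genes, 1752 CPM. Slit1 in control primary 7 was at 79.5 CPM, against 3.65 to 8.68 in the other controls.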

How the results depend on the processing

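For the 14 genes given by library, 744 of 840 values under alternatives kept their direction and their side of the threshold, 37 lost a call, 25 gained one and 34 changed sign. Ephb1 stayed called lower in both comparisons with control under every alternative run. The cause of the other shifts was not tested. The counts of calls below come without the share of all genes called in the same alternative fit. They therefore do not set members or pathway genes apart from other genes. Only the values of Epha8, Robo2, Slit1, Ntn4, Unc5a, Neo1, Efnb1, Ephb6, Efna2 and Epha3 in comparisons that did not call them changed sign.

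In KO primary against control primary, 2 members were called higher and 2 lower, and 1 and 4 genes of the 3 pathway lists. Leaving out 1 library gave 0 to 2 members higher and 2 to 6 lower, and 1 to 2 and 3 to 8 pathway genes. DESeq2 gave 4 members lower, with 5 and 8 pathway genes, and limma voom 4 higher and 6 lower, with 6 and 17. Members called higher were 1 with RLE or upper-quartile scaling, without robust fitting (chosen after seeing the data), without the 4 libraries of high receptor counts or with only the 2 groups compared, and 0 without a low-count filter. The 1 CPM filter, the 2 groups alone and the fit without the 4 libraries each gave 2 pathway genes higher. The last gave 6 members and 9 pathway genes lower. Without the 3 controls with Xist counts there were 0 members higher, 1 lower and 2 pathway genes lower.

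In KO metastasis against control primary, 1 member was called higher and 2 lower, and 2 and 4 pathway genes. Leaving out 1 library gave 0 to 1 and 1 to 5 members and 2 to 8 pathway genes lower. DESeq2 gave 4 and 7 members and 5 and 8 pathway genes, and limma voom 5 and 9 members and 5 and 16 pathway genes. Without the 4 libraries 5 members were lower. Without the 3 controls with Xist counts 0 members were higher and 1 lower, with 1 and 0 pathway genes. For KO metastasis against KO primary, DESeq2 and the fit without the 4 libraries each gave 1 pathway gene higher.

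Log2 changes that changed sign were, for KO primary against control, Ntn4 (-0.010 in limma voom), Robo2 (-0.078 without the 4 libraries) and Ephb6 (0.0040 without the 3 controls with Xist counts), and, with 1 library left out, Ntn4 (-0.14 to 0.21), Robo2 (-0.016 to 0.35) and Unc5a (-0.25 to 0.39). For metastasis against KO primary they were Efna2 (0.0037 with upper-quartile scaling), Efnb1 (-0.030) and Epha3 (-0.12) in limma voom, and, with 1 library left out, Efnb1 (-0.025 to 0.18) and Neo1 (-0.12 to 0.25). For metastasis against control they were Epha8 (0.079 without the 4 libraries, 0.56 without the 3 controls), Robo2 (0.43 without the 3 controls) and Slit1 (-2.83 without the 4 libraries), and, with 1 library left out, Epha8 (-0.28 to 0.22), Robo2 (-0.25 to 0.15) and Slit1 (-0.44 to 2.06).

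Whether the replicate numbers pair the libraries was not settled. Deviations of same-numbered KO primary and KO metastasis libraries correlated at 0.36, 0.49, -0.0047 and 0.68 across genes for numbers 3, 4, 6 and 7. Differently numbered pairs ran from -0.67 (KO primary 7, metastasis 4) to 0.69 (KO primary 7, metastasis 6). These correlations therefore cannot show whether same-numbered libraries share a mouse. With the number as a replicate block over 13 libraries, KO primary against control gave 1 member and 2 pathway genes higher, metastasis against control gave 2 members higher, and signs changed for Unc5a (0.11, KO primary) and, in metastases, Epha8 (0.15), Robo2 (0.17) and Slit1 (-0.065). A block over the KO libraries alone called 8 of all genes and 0 members between metastasis and KO primary. The median log2 change of all genes for KO primary against control, -0.05, was -0.086 with RLE scaling, -0.14 with upper-quartile scaling, -0.12 without a low-count filter and -0.17 in DESeq2, which differs in tool, filter and scaling. Counts were low for Efna1 in metastases, at 2 to 54 per library.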
